A study of Saccharomyces cerevisiae with 16 samples.

Results

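Transcripts of 10 cytosolic chaperone genes of budding yeast (*Saccharomyces cerevisiae*) that belong to the heat shock factor regulon were described, out of 6697 coding sequences (CDS) in the count table. The genes were chosen by name: the Hsp70 genes *SSA1*, *SSA2*, *SSA3* and *SSA4*, the Hsp90 genes *HSP82* and *HSC82*, the disaggregase gene *HSP104*, the J-domain co-chaperone genes *YDJ1* and *SIS1*, and the aggregate-sorting gene *BTN2*. All 10 passed the filter of a mean of at least 10 reads over the 8 libraries of a library type, and none of them has an intron in the intron tables. Their lowest count in any library was 163 reads and their highest 405518.

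The study asked how introns of ribosomal protein genes shape cell-to-cell differences under osmotic and drug stress, with the small ribosomal subunit protein gene *RPS22B* as its main case. RNA of 8 cultures or sorted populations was sequenced, with polyadenylated and ribo-depleted libraries made from each RNA, 16 libraries in all. There was 1 library per culture and library type, so the spread between cultures is unknown and no p-value is given. The library types share their RNA, so their agreement checks library preparation only.

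Rps22B-high and Rps22B-low cells came from LiCl-treated *RPS22B*-GFP cells sorted by green fluorescence into a bright and a dim population. According to the methods they had spent 6 h in 4.5 mg/ml LiCl, whereas the labels give 24 h and the dose closest to halved growth for them too, and only the ribo-depleted labels name the *TDH3* promoter-mCherry cassette at *HO* that the sort used. A further LiCl culture is labelled as *RPS22B*-GFP with the 5′ UTR intron of *RPS22B* deleted. The other 5 cultures are labelled wild type (WT) and grew in rich medium (YPD) with 20% glucose, with 0.4 M NaCl, with LiCl, with 0.32 µg/ml myriocin, a blocker of sphingolipid synthesis, or with 0.85 µM fenpropimorph, a blocker of ergosterol synthesis. The unsorted cultures were re-inoculated every 8 h for 24 h, and their LiCl, myriocin and fenpropimorph doses were those closest to halved growth. The study describes the high glucose culture as in late exponential and the LiCl culture as in mid-exponential growth, so growth phase cannot be told apart from glucose in the comparisons of that culture. No culture without a stressor was analysed here.

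Reads on marker genes bore on these labels. The 6 libraries labelled as intron deletion or sorted cells had 0 to 1 read on *HIS3*, 2 to 5 on *LYS2* and 1225 to 40541 on *MET17*, against 1120 to 5097, 4741 to 13584 and 0 to 1 in the 10 WT libraries. According to the methods, the deletion strain and the mCherry-marked *RPS22B*-GFP strain were built from a parental strain with *his3* and *lys2* deletions. Strain background therefore cannot be told apart from the deletion, the sort or the *RPS22B*-GFP fusion when these libraries are set against WT. The library labelled intron deletion held 594 reads on the *RPS22B* 5′ UTR intron in polyadenylated RNA and 269 in ribo-depleted RNA, against 285 and 165 in WT cells in LiCl, whereas a deleted intron would give none. The *RPS22B* CDS level, in CPM (counts per 1000000 CDS reads of a library total adjusted by its TMM factor, a scaling for composition), was 112 (polyadenylated) and 52.4 (ribo-depleted) in the library labelled intron deletion, against 21.2 and 9.24 in WT cells in LiCl, so more intron reads came with more CDS reads. The study reports a PCR check of its deletion strain. It also reports more *RPS22B* transcript in that strain than in its parent under LiCl. *HO* had 1572 to 8205 reads in the 4 sorted libraries, although the ribo-depleted labels give *HO* as replaced there, against 147 and 79 in the library labelled intron deletion and 110 to 5442 in the WT libraries. The *RPS22B* CDS level was 19.5 CPM in Rps22B-high and 10.7 CPM in Rps22B-low cells by polyadenylated counts, and 42.8 and 42.2 CPM by ribo-depleted counts. The libraries held 29557254 to 50337762 (polyadenylated) and 36377857 to 53234402 (ribo-depleted) reads on CDS.

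Molecular chaperones keep proteins soluble and folded. Hsp70 binds exposed hydrophobic stretches of unfolded clients with the help of J-domain proteins, which bring the client and trigger ATP hydrolysis, Hsp90 finishes the folding of particular clients, and Hsp104 pulls proteins out of aggregates. In yeast, the transcription factor Hsf1 drives these genes when unfolded proteins accumulate, by binding as a trimer to inverted repeats of the unit GAA called heat shock elements, and the general stress factors Msn2 and Msn4 bind stress response elements upstream of some of the same genes.

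The letters of heat shock elements upstream of the genes are shown because Hsf1 binds such elements. Since the genes were taken as members of the Hsf1 regulon, finding them is in part fixed by that choice and is a description only. Windows of 500 bases upstream of each start codon were searched on both strands of the RefSeq R64 genome for a run of 3 adjoining units (GAANNTTCNNGAA or TTCNNGAANNTTC) and for a gapped form (TTCNNGAANNNNNNNGAA or its reverse complement TTCNNNNNNNTTCNNGAA). A run of 4 units that starts with TTC, or any longer run, also matches the gapped form, so the forms overlap. Overlapping matches were merged, and each stretch is written 5′ to 3′ on the strand of the gene with the units in capitals and 2 flanking bases on each side.
SSA1 (chrI:141776-141797, minus strand, units 364 to 347 bases before the start codon): ctTTCcaGAAcaTTCtaGAAag
SSA1 (chrI:141678-141694, minus strand, 261 to 249 bases before): ttTTCcaGAAcgTTCca
SSA2 (chrXII:97704-97720, minus strand, 233 to 221 bases before): ttTTCtaGAAcaTTCca
SSA4 (chrV:364334-364355, plus strand, 253 to 236 bases before): caTTCtaGAAgttcctaGAAcc
HSP82 (chrXVI:98841-98862, minus strand, 235 to 218 bases before): ttTTCtaGAAcgccgtgGAAga
HSC82 (chrXIII:632136-632157, plus strand, 217 to 200 bases before): ctTTCtaGAAggtgaaaGAAca
HSP104 (chrXII:88319-88340, plus strand, 302 to 285 bases before): ttTTCcaGAAttTTCtaGAAgg
SIS1 (chrXIV:619885-619911, minus strand, 344 to 322 bases before): atGAAcgTTCcaGAAacTTCtgGAAaa
BTN2 (chrVII:772108-772129, plus strand, 344 to 327 bases before): ttTTCtaGAAagTTCcgGAAaa

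At least 1 such element was found upstream of 8 of the 10 genes, against 158 of 5987 windows (2.64%) of all genes. The adjoining form was present for 5 of 10 genes (*SSA1*, *SSA2*, *HSP104*, *SIS1* and *BTN2*), against 1.49% of windows, and the gapped form for 7 of 10, against 1.39%. *SIS1* carried the longest run, 5 units in the 27 bases shown, and *SSA2* a run of only 3. *SSA3* and *YDJ1* had no match to these letters in the window. The stress response element (AGGGG or CCCCT) stood upstream of *SSA1*, *SSA4*, *HSP82* and *HSP104*, 4 of 10 against 34.1% of all windows. These matches are descriptions of sequence and not measured binding.

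The 4 Hsp70 genes encode the cytosolic Ssa chaperones, of which Ssa1 and Ssa2 are the constitutive and Ssa3 and Ssa4 the stress-inducible forms. In the R64 genome the CDS lie at chrI:139503-141431 (*SSA1*, YAL005C, minus strand), chrXII:95566-97485 (*SSA2*, YLL024C, minus), chrII:84499-86448 (*SSA3*, YBL075C, minus) and chrV:364589-366517 (*SSA4*, YER103W, plus). *SSA4* measured 8598 CPM in Rps22B-high cells, 5242 in Rps22B-low cells, 1479 in cells labelled intron deletion, 229 in high glucose, 30.4 in NaCl, 1156 in LiCl, 66.6 in myriocin and 53.8 in fenpropimorph in polyadenylated RNA. In ribo-depleted RNA *SSA4* measured 2997, 2377, 685, 289, 9.99, 471, 26.3 and 21.3 CPM in the same order. The order of the 8 cultures by *SSA4* was identical in both library types, and all 4 cultures or populations in LiCl stood above the other 4. From NaCl to Rps22B-high cells the polyadenylated level spanned 282-fold, rank 58 of 6640 genes by that span, where the median gene spanned 3.25-fold.

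*SSA3* behaved differently from *SSA4* in the sorted cells. Its level was 367 CPM in Rps22B-high cells, 425 in Rps22B-low cells, 892 in cells labelled intron deletion, 68.1 in high glucose, 47.5 in NaCl, 1305 in LiCl, 42.5 in myriocin and 39.3 in fenpropimorph in polyadenylated RNA. The ribo-depleted values were 97.8, 116, 287, 28.7, 15.3, 511, 14.4 and 13.6 CPM in the same order. WT cells in LiCl had the highest *SSA3* level in both library types, and the cultures without LiCl lay within a narrow band below all those with it. The order of cultures by *SSA3* was again identical in both types, although myriocin and fenpropimorph differed by only 0.11 and 0.08 on the log2 scale.

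*SSA1* measured 11418 CPM in Rps22B-high cells, 8817 in Rps22B-low cells, 7838 in cells labelled intron deletion, 1223 in high glucose, 1146 in NaCl, 3066 in LiCl, 1345 in myriocin and 1365 in fenpropimorph in polyadenylated RNA. In ribo-depleted RNA *SSA1* measured 3149, 2697, 3180, 2281, 1101, 1550, 813 and 850 CPM. The library types placed high glucose differently, above only NaCl for *SSA1* in polyadenylated RNA and above all 4 other WT cultures in ribo-depleted RNA. *SSA2* measured 7801, 5301, 3777, 1985, 2624, 1416, 1512 and 1400 CPM in polyadenylated RNA in that order of cultures, and 2562, 2097, 1441, 3567, 2367, 706, 1070 and 1116 CPM in ribo-depleted RNA. Among the WT cultures *SSA2* was highest in NaCl in polyadenylated RNA and in high glucose in ribo-depleted RNA, and LiCl was lowest or second lowest.

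The CDS of *SSA1* and *SSA2* were 96.4% identical, and 45.8% of all 100-base stretches of *SSA1* also occurred unchanged in *SSA2*, so their reads could be split by the counting and their separate values are uncertain. Any count of genes below that includes both of them is therefore not a count of independent genes. *SSA3* and *SSA4* were 76.7% identical and shared no 100-base stretch with each other, with *SSA1* or with *SSA2*. The strand setting of the counting and the treatment of reads that map to several places are not given in the sources used here.

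Per kb of CDS, the make-up of the Ssa transcripts differed between the cultures. *SSA4* made up 30.5% of the summed Ssa level per kb in Rps22B-high cells, 26.5% in Rps22B-low cells, 10.6% in cells labelled intron deletion, 6.52% in high glucose, 0.79% in NaCl, 16.7% in LiCl, 2.24% in myriocin and 1.88% in fenpropimorph in polyadenylated RNA. In ribo-depleted RNA the *SSA4* share was 34.0%, 32.6%, 12.2%, 4.68%, 0.29%, 14.5%, 1.37% and 1.06%. *SSA3* had its largest share in WT cells in LiCl, 18.6% of polyadenylated and 15.6% of ribo-depleted Ssa transcripts, and 1.29% and 1.10% in Rps22B-high cells. *SSA4* exceeded *SSA3* per kb by 23.7-fold and 31.0-fold in Rps22B-high cells, whereas the ratio was 0.89 and 0.93 in WT cells in LiCl. *SSA2* was the most abundant Ssa transcript per kb in NaCl, at 68.3% and 67.9%, and *SSA1* in WT cells in LiCl, at 44.2% and 47.9%, with the limit on separating the pair given above.

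**Figure D1:**
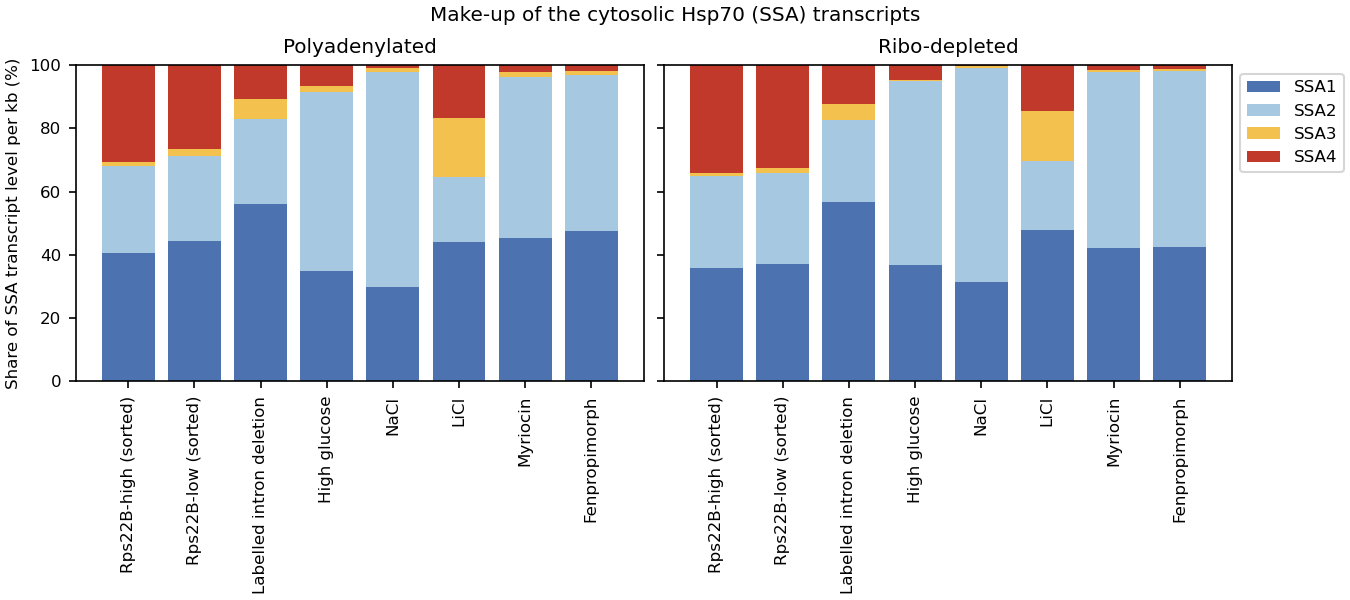
Stacked bars give each SSA gene's share (%) of the summed SSA level per kb of CDS in each culture or sorted population, polyadenylated RNA on the left and ribo-depleted RNA on the right, 1 library per bar. The *SSA4* share reached 30.5% and 34.0% in Rps22B-high cells and was 0.79% and 0.29% in NaCl, and the *SSA3* share was largest in WT cells in LiCl.

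Hsp90 is encoded by the stress-inducible *HSP82* (YPL240C, chrXVI:96496-98625, minus strand) and the constitutive *HSC82* (YMR186W, chrXIII:632355-634472, plus strand). *HSP82* measured 8058 CPM in Rps22B-high cells, 5433 in Rps22B-low cells, 3918 in cells labelled intron deletion, 857 in high glucose, 65.7 in NaCl, 2011 in LiCl, 419 in myriocin and 427 in fenpropimorph in polyadenylated RNA. The ribo-depleted values of *HSP82* were 2153, 1642, 1508, 1208, 67.4, 1219, 135 and 144 CPM. NaCl was lowest in both types, with log2 differences of -2.67 (polyadenylated) and -0.998 (ribo-depleted) from myriocin, the next in order. *HSC82* measured 4216, 3079, 1919, 1905, 1600, 1263, 999 and 954 CPM in polyadenylated RNA in that order of cultures, and 1265, 997, 761, 2623, 1175, 641, 571 and 562 CPM in ribo-depleted RNA.

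*HSC82* spanned 2.00-fold over the WT cultures in polyadenylated RNA and *HSP82* 30.6-fold. Per kb, the ratio of *HSP82* to *HSC82* was 1.90 in Rps22B-high cells, 1.75 in Rps22B-low cells, 2.03 in cells labelled intron deletion, 0.45 in high glucose, 0.041 in NaCl, 1.58 in LiCl, 0.42 in myriocin and 0.44 in fenpropimorph in polyadenylated RNA. *HSP82* was thus the more abundant Hsp90 transcript in the 4 LiCl samples and the less abundant in the other 4, with the same side of 1 in ribo-depleted RNA, where the ratios were 1.69, 1.64, 1.97, 0.46, 0.057, 1.89, 0.23 and 0.25. The CDS were 91.7% identical and 0.69% of 100-base stretches were shared, so few reads could belong to either gene.

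*HSP104* (YLL026W, chrXII:88623-91349, plus strand) encodes the disaggregase that resolves protein aggregates together with Hsp70. Its polyadenylated level was 10728 CPM in Rps22B-high cells, 7120 in Rps22B-low cells, 4085 in cells labelled intron deletion, 230 in high glucose, 92.4 in NaCl, 1886 in LiCl, 1009 in myriocin and 1201 in fenpropimorph. The ribo-depleted level was 5827, 4436, 2415, 1011, 51.9, 1313, 399 and 534 CPM. High glucose was the second lowest culture for *HSP104* in polyadenylated RNA, but stood above myriocin and fenpropimorph in ribo-depleted RNA. NaCl was lowest in both.

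The J-domain proteins Ydj1 and Sis1 hand clients to Hsp70, and Sis1 is the essential one that works with Hsp104 on aggregates. *YDJ1* (YNL064C, chrXIV:505868-507097, minus strand) measured 758 CPM in Rps22B-high cells, 638 in Rps22B-low cells, 289 in cells labelled intron deletion, 566 in high glucose, 706 in NaCl, 250 in LiCl, 502 in myriocin and 291 in fenpropimorph in polyadenylated RNA, and 232, 180, 85.2, 203, 241, 74.7, 154 and 104 CPM in ribo-depleted RNA. *YDJ1* was lowest in WT cells in LiCl in both types, unlike any of the other 9 genes in polyadenylated RNA. *SIS1* (YNL007C, chrXIV:618507-619565, minus strand) measured 2112, 1426, 394, 565, 155, 189, 269 and 268 CPM in polyadenylated RNA in the same order, and 804, 615, 203, 229, 64.6, 134, 78.1 and 89.2 CPM in ribo-depleted RNA. Its highest levels were in the sorted cells and its lowest in NaCl.

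*BTN2* (YGR142W, chrVII:772454-773686, plus strand) encodes a sorting factor that gathers misfolded proteins into inclusions. Its polyadenylated level was 6237 CPM in Rps22B-high cells, 4162 in Rps22B-low cells, 73.0 in cells labelled intron deletion, 311 in high glucose, 12.9 in NaCl, 16.6 in LiCl, 58.9 in myriocin and 45.0 in fenpropimorph, and its ribo-depleted level 1708, 1081, 25.3, 111, 4.01, 10.8, 16.1 and 14.6 CPM. The sorted cells stood far above every unsorted culture, including both unsorted LiCl cultures. *BTN2* had the widest span of the 10 genes over all 8 samples, 484-fold in polyadenylated RNA (rank 27 of 6640), and the order of the samples was the same in both library types.

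**Figure D2:**
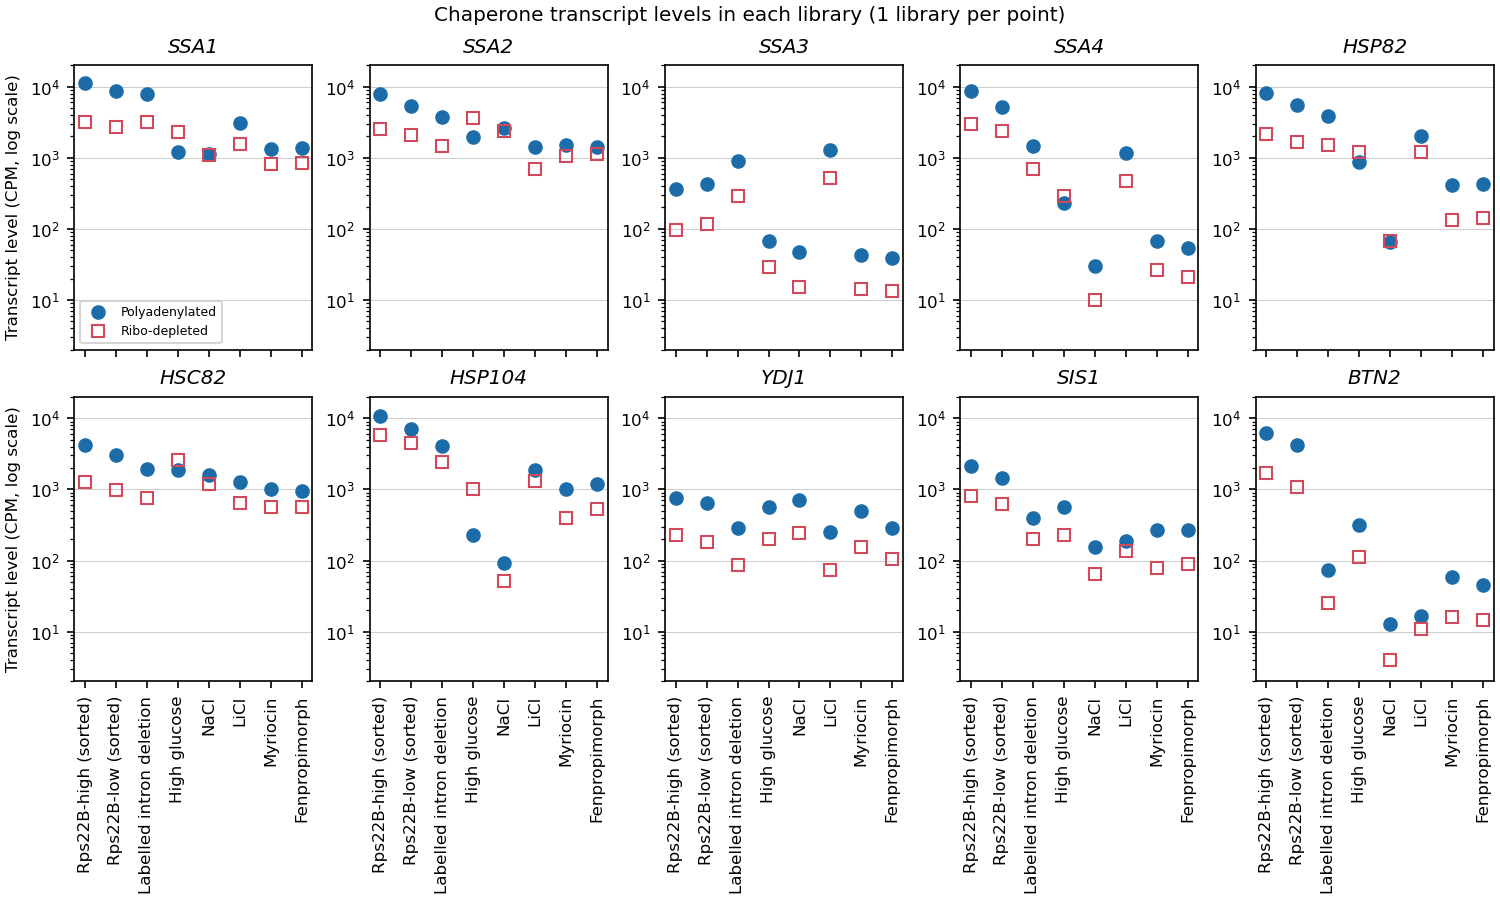
Each panel is a gene and each point a library, with transcript level in CPM on a log axis, filled circles for polyadenylated and open squares for ribo-depleted RNA of the same sample. *SSA4*, *HSP82* and *HSP104* were highest in the 4 LiCl samples, *BTN2* and *SIS1* in the sorted cells, and *HSC82* and *YDJ1* varied least in polyadenylated RNA. For *HSP82* in ribo-depleted RNA, high glucose (1208 CPM) was close to WT cells in LiCl (1219 CPM). For *HSP104* in polyadenylated RNA, fenpropimorph stood at 1201 CPM against 1886 CPM in WT cells in LiCl.

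Over the 5 WT cultures the polyadenylated level spanned 38.0-fold for *SSA4*, 33.2-fold for *SSA3*, 30.6-fold for *HSP82*, 24.2-fold for *BTN2* and 20.4-fold for *HSP104*, and between 1.87-fold (*SSA2*) and 3.65-fold (*SIS1*) for the other 5 genes, against 2.21-fold for the median gene. The 10 genes together took 7.01% of all CDS reads in Rps22B-high cells, 5.03% in Rps22B-low cells, 2.44% in cells labelled intron deletion, 0.817% in high glucose, 0.517% in NaCl, 1.33% in LiCl, 0.524% in myriocin and 0.591% in fenpropimorph in polyadenylated RNA. In ribo-depleted RNA the shares were 2.42%, 2.09%, 0.899%, 1.03%, 0.570%, 0.572%, 0.282% and 0.366%. In bulk RNA a level can differ because fewer cells of a kind carry the transcript or because each carries less, and these cannot be told apart.

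LiCl was set against myriocin and fenpropimorph to separate the salt from growth inhibition as such, as the labels give similar growth inhibition for these 3 cultures. A gene was counted as higher or lower when it differed at least 2-fold in the same direction in both library types. *SSA3*, *SSA4* and *HSP82* were higher in LiCl than in myriocin, 3 of 10 genes against 12.4% of all 6602 genes, and *YDJ1* was lower, 1 of 10 against 11.9%. The same 3 genes were higher in LiCl than in fenpropimorph (10.5% of all genes), and none was lower (10.1% of all genes). Both comparisons share the LiCl libraries.

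*SSA3* was higher in LiCl than in myriocin by 4.94 on the log2 scale in polyadenylated RNA (95% counting interval 4.87 to 5.01) and by 5.15 in ribo-depleted RNA (5.03 to 5.27), and than in fenpropimorph by 5.05 and 5.23. *SSA4* was higher by 4.12 (4.06 to 4.17) and 4.16 (4.07 to 4.25) against myriocin, and by 4.43 and 4.46 against fenpropimorph. *HSP82* was higher by 2.26 and 3.18 against myriocin and by 2.24 and 3.08 against fenpropimorph. By these values *SSA3* ranked 43rd and 31st and *SSA4* 66th and 56th of 6602 genes in LiCl over myriocin. Intervals cover counting error only, since PCR duplicates and differences between cultures are not in them.

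The other Hsp70, Hsp90 and disaggregase genes differed less between LiCl and the drugs. *SSA1* was higher in LiCl than in myriocin by 1.19 and 0.93, and than in fenpropimorph by 1.17 and 0.87, and so missed the 2-fold limit in ribo-depleted RNA alone. *HSP104* differed by 0.90 and 1.72 against myriocin and by 0.65 and 1.30 against fenpropimorph. *HSC82* differed by 0.34 and 0.17 against myriocin and by 0.40 and 0.19 against fenpropimorph, and *SSA2* by -0.09 and -0.60 and by 0.02 and -0.66. Among the co-chaperones, *YDJ1* differed by -1.003 and -1.04 against myriocin, at the 2-fold limit and short of it when CPM were taken on total CDS counts, and by -0.22 and -0.48 against fenpropimorph. *SIS1* had opposite signs in the library types, -0.51 and 0.78 against myriocin. *BTN2* differed by -1.82 and -0.57 against myriocin and by -1.44 and -0.44 against fenpropimorph. The median of the 10 genes was 0.62 and 0.86 against myriocin, where that of all genes was -0.02 and 0.04.

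NaCl and LiCl, both osmotic salts, were compared directly, although NaCl was used at a fixed dose whose growth inhibition was not matched to that of LiCl. *SSA3*, *SSA4*, *HSP82* and *HSP104* were lower in NaCl than in LiCl, 4 of 10 genes against 18.4% of all genes, and *YDJ1* was higher, 1 of 10 against 16%. *SSA4* had a log2 difference of -5.25 (interval -5.33 to -5.16) and -5.56 (-5.70 to -5.41), *SSA3* one of -4.78 and -5.06, *HSP82* one of -4.94 and -4.18, and *HSP104* one of -4.35 and -4.66. These 4 differences ran from 18.1-fold to 47.1-fold.

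*HSP104*, *SSA4* and *BTN2* were also lower in NaCl than in myriocin by at least 2-fold in both types, at -3.45 and -2.94, -1.13 and -1.40, and -2.19 and -1.998, which were 3 of 10 against 5.36% of all genes, and none was higher (0.606%). *HSP82* differed from myriocin by -2.67 and -0.998, just short of the limit in ribo-depleted RNA. Against fenpropimorph, *HSP82*, *HSP104* and *BTN2* were lower in NaCl (3 of 10, 10.6% of all genes) and *YDJ1* was higher (1 of 10, 7.06%), a call lost when CPM were taken on total CDS counts. In NaCl over LiCl *YDJ1* stood at 1.50 and 1.69, and *SSA2* at 0.89 and 1.75. In the same comparison *HSC82* differed by 0.34 and 0.87, *SSA1* by -1.42 and -0.49, *SIS1* by -0.29 and -1.05 and *BTN2* by -0.37 and -1.43. *SSA4*, *HSP82*, *HSP104*, *SIS1* and *BTN2* thus had their lowest levels of all samples in NaCl, while *YDJ1* had its highest among the WT cultures there.

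High glucose is the remaining osmotic condition, with the difference in growth phase given above. Against LiCl, *BTN2* and *YDJ1* were higher (2 of 10, 12.4% of all genes) and *SSA3* was lower (1 of 10, 15%). *BTN2* was higher in high glucose by 4.23 (interval 4.12 to 4.33) and 3.35 (3.22 to 3.49), 18.7-fold and 10.2-fold, and ranked 5th and 11th of 6602 genes. *YDJ1* was higher by 1.18 and 1.44, and *SSA3* differed by -4.26 and -4.15.

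For the other genes the high glucose difference depended on the library type. *HSP104* differed from LiCl by -3.04 in polyadenylated and -0.38 in ribo-depleted RNA, *SSA4* by -2.33 and -0.70, *HSP82* by -1.23 and -0.01, *SSA1* by -1.33 and 0.56, *SSA2* by 0.49 and 2.34, and *HSC82* by 0.59 and 2.03. The gap between library types had a median of 1.33 log2 units over the 10 genes, against 0.29 over all genes. *SIS1* differed by 1.58 and 0.77.

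High glucose and NaCl, set against each other, do not share the LiCl libraries. *SSA4*, *HSP82*, *HSP104*, *SIS1* and *BTN2* were higher in high glucose, 5 of 10 genes against 4.12% of all genes, and none was lower (4.65%). *BTN2* was higher by 4.60 and 4.78, *HSP82* by 3.71 and 4.16, *SSA4* by 2.91 and 4.85, *SIS1* by 1.87 and 1.82, and *HSP104* by 1.31 and 4.28. Against each drug, *SSA4*, *HSP82*, *SIS1* and *BTN2* were higher in high glucose (4 of 10, 1.89% of all genes against myriocin and 2.98% against fenpropimorph), and none was lower (5.15% and 7.04% of all genes). *HSP104* had opposite signs in polyadenylated and ribo-depleted RNA, -2.14 and 1.34 against myriocin and -2.39 and 0.92 against fenpropimorph. *SSA1* did so too, at -0.14 and 1.49 against myriocin and -0.16 and 1.42 against fenpropimorph. The call of *HSP82* against fenpropimorph, at 1.01 and 3.07, was lost with DESeq2 size factors. Myriocin and fenpropimorph, the drugs set against each other, differed by less than 2-fold for all 10 genes in both library types (0 of 10 higher, 1.92% of all genes, and 0 of 10 lower, 3.29%). *YDJ1* was the most different of the 10, at 0.79 and 0.56.

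**Figure D3:**
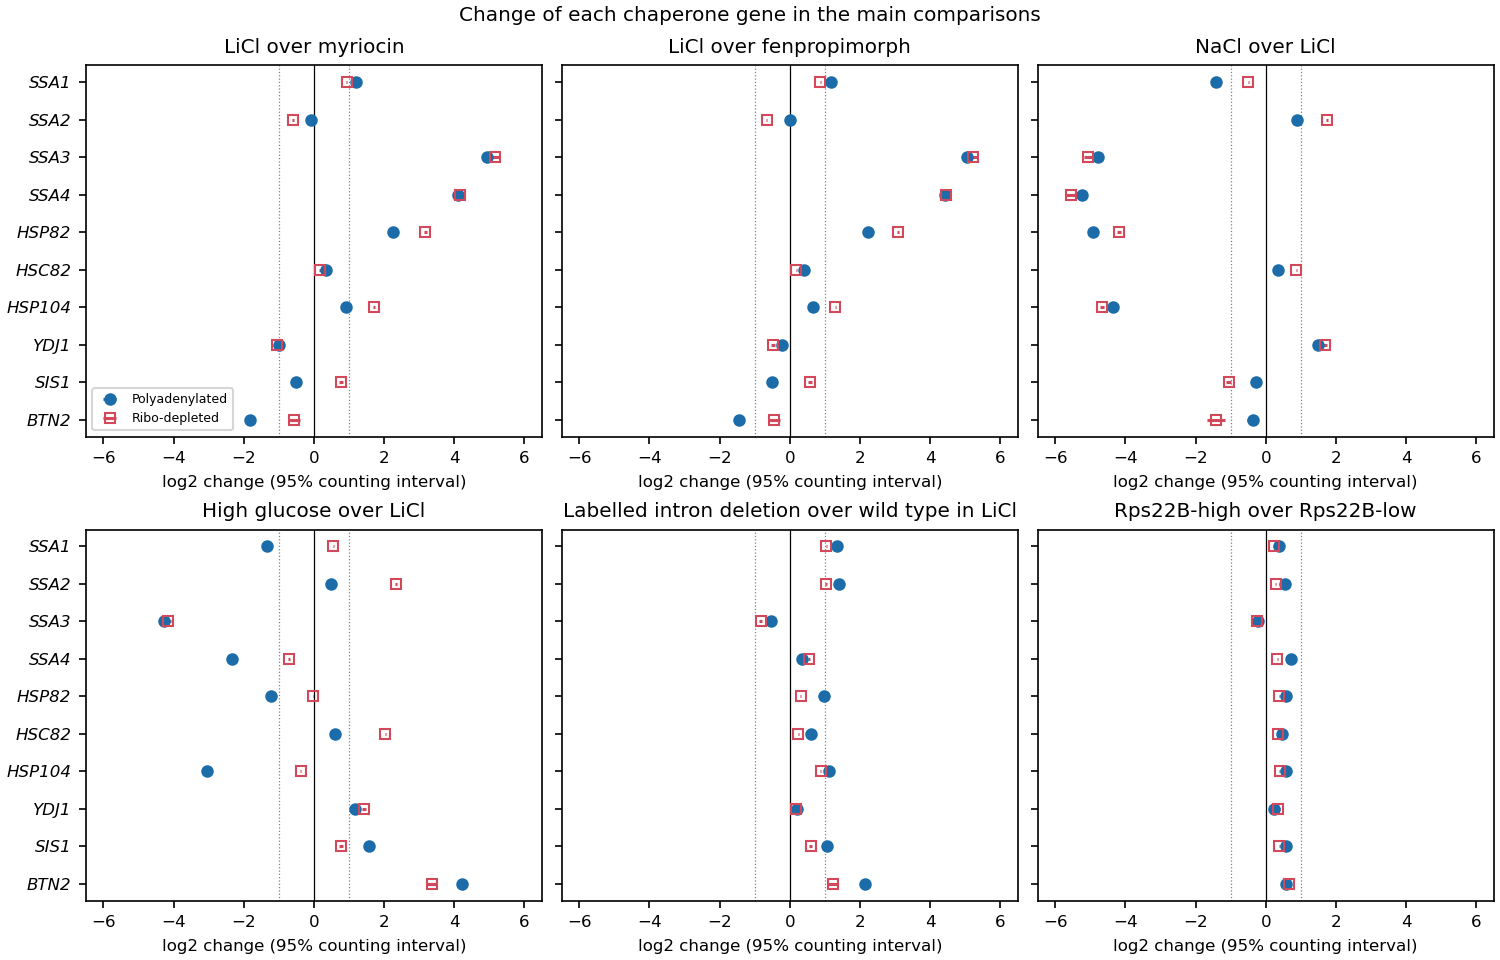
The log2 difference of each gene in 6 comparisons, filled circles for polyadenylated and open squares for ribo-depleted RNA. Bars are 95% counting intervals, mostly narrower than the points, and dotted lines mark 2-fold. *SSA3* and *SSA4* stood at 4.12 to 5.23 in LiCl over either drug, and no gene reached 2-fold between the sorted populations.

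In every culture except high glucose the median of the log2 ratio of polyadenylated to ribo-depleted level over the 10 genes lay between 0.98 and 1.72, against 1.04 to 1.09 for all genes. In high glucose it was -0.40, against 1.08 for all genes. The ratio was at least 2-fold lower in high glucose than its median over the other 7 samples for 6 of 10 genes, *SSA1*, *SSA2*, *SSA4*, *HSP82*, *HSC82* and *HSP104*, against 3.27% of all genes. *HSP104* had a ratio of -2.14 in high glucose, against 0.52 to 1.34 in the other 7 samples, 7.83-fold below their median and the 11th lowest such difference of 6602 genes. *HSP82* stood at -0.49 against -0.04 to 1.90, and *SSA1* at -0.90 against 0.06 to 1.86. The ratios of *SSA3*, *YDJ1*, *SIS1* and *BTN2* in high glucose were 1.25, 1.48, 1.30 and 1.49, which differed from their median over the other samples by -0.39 to 0.04. This rests on 1 pair of libraries, and growth phase, which differed for that culture, cannot be told apart from glucose in it.

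**Figure D4:**
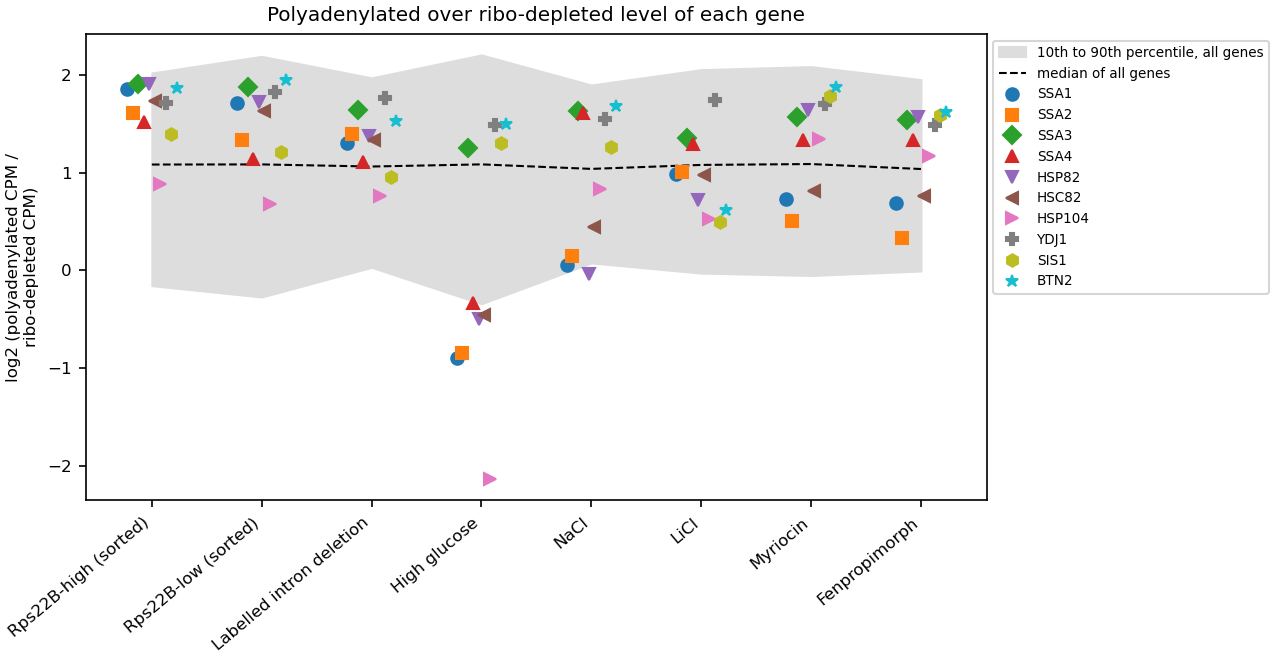
The log2 ratio of polyadenylated to ribo-depleted CPM of each gene (symbols) in each sample, with the 10th to 90th percentile of all genes shaded and their median dashed. In high glucose 6 of the 10 genes stood between -2.14 and -0.34 and the other 4 between 1.25 and 1.49.

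The culture labelled intron deletion was compared with WT cells in LiCl, each at the dose closest to halved growth. The labels give the LiCl concentration of neither culture, so the doses may differ. *SSA1*, *SSA2* and *BTN2* were higher, 3 of 10 genes against 1.27% of all genes, and none was lower (1.14% of all genes). Since reads of *SSA1* and *SSA2* could be split between them, the calls of that pair are not independent. *SSA1* was higher by 1.35 and 1.04 on the log2 scale, *SSA2* by 1.42 and 1.03, and *BTN2* by 2.13 (interval 2.02 to 2.24) and 1.23 (1.07 to 1.38). *HSP104* differed by 1.11 and 0.88, *SIS1* by 1.06 and 0.60, *HSP82* by 0.96 and 0.31, *HSC82* by 0.60 and 0.25, *SSA4* by 0.36 and 0.54 and *YDJ1* by 0.21 and 0.19. In all, 9 of 10 genes were higher in both types, against 41.3% of all genes. *SSA3* alone was lower in both, 1 of 10 against 41.7% of all genes, at -0.55 and -0.83. The values set a library that holds *RPS22B* intron reads, and whose strain markers differ from those of WT, against WT. They describe this pair of libraries and give no direction for the loss of the intron, and with WT over that library every sign is turned (0 of 10 higher and 3 of 10 lower by at least 2-fold). Strain background, the labelled *RPS22B*-GFP fusion and any difference in LiCl dose cannot be told apart from the labelled deletion in them.

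Rps22B-high and Rps22B-low cells came from the same culture and sort. No gene of the 10 reached 2-fold in both types (0 of 10 higher, 0% of all genes, and 0 of 10 lower, 0.0757%). *SSA1*, *SSA2*, *SSA4*, *HSP82*, *HSC82*, *HSP104*, *YDJ1*, *SIS1* and *BTN2* were higher in Rps22B-high cells in both library types, 9 of 10 genes against 29.6% of all genes, and *SSA3* was lower, 1 of 10 against 31.6%. Their directions were the same under each of the scalings tried. *SSA4* was higher by 0.71 (interval 0.71 to 0.72) in polyadenylated and 0.33 (0.32 to 0.35) in ribo-depleted RNA, *BTN2* by 0.58 and 0.66, *HSP104* by 0.59 and 0.39, *HSP82* by 0.57 and 0.39, and *SIS1* by 0.57 and 0.39. *SSA2* was higher by 0.56 and 0.29, *HSC82* by 0.45 and 0.34, *SSA1* by 0.37 and 0.22 and *YDJ1* by 0.25 and 0.36, and *SSA3* differed by -0.21 and -0.24. The median of the 10 was 0.56 and 0.35 where that of all genes was -0.01 and -0.000574. *BTN2* was 141st in polyadenylated and 80th in ribo-depleted RNA of 6602 genes. These differences were 1.17-fold to 1.64-fold for the 9 genes, and with 1 library per population their size against the spread between sorts is unknown.

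Both sorted populations were also set against the unsorted culture labelled intron deletion, which was like them in *HIS3* and *LYS2* reads but had 3048 and 1225 *MET17* reads, against 9918 to 40541 in the sorted libraries, and against WT cells in LiCl. Relative to the library labelled intron deletion, *SSA4*, *HSP104*, *YDJ1*, *SIS1* and *BTN2* were higher in Rps22B-high cells (5 of 10, 9.12% of all genes) and *SSA3* was lower (1 of 10, 9.92%). *BTN2* was higher by 6.42 and 6.07, *SSA4* by 2.54 and 2.13, *SIS1* by 2.42 and 1.99, *YDJ1* by 1.39 and 1.45 and *HSP104* by 1.39 and 1.27, and *SSA3* differed by -1.28 and -1.55. In Rps22B-low cells *BTN2* was higher by 5.83 and 5.41, *SSA4* by 1.83 and 1.79, *SIS1* by 1.85 and 1.6 and *YDJ1* by 1.15 and 1.08 (4 of 10, 8.48% of all genes), and *SSA3* was lower at -1.07 and -1.31 (1 of 10, 10%). The call of *SSA3* in Rps22B-low cells was lost when CPM were taken on total CDS counts. *SSA1* differed by 0.54 and -0.01 in Rps22B-high cells and by 0.17 and -0.24 in Rps22B-low cells.

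Against WT cells in LiCl, *SSA1*, *SSA2*, *SSA4*, *HSP104*, *YDJ1*, *SIS1* and *BTN2* were higher in Rps22B-high cells (7 of 10, 9.89% of all genes), and all of these but *SSA1* in Rps22B-low cells (6 of 10, 9.45%), while *SSA3* was lower in both (12.8% and 12.5% of all genes). *BTN2* was higher by 8.55 and 7.30 in Rps22B-high cells and by 7.97 and 6.64 in Rps22B-low cells. LiCl dose and time as the methods give them and the sort differ between the sorted and the unsorted samples. Strain background, the *RPS22B*-GFP fusion and the mCherry cassette differ between the sorted samples and the samples labelled WT. None of these differences can be told apart. Whether the culture labelled intron deletion carried the cassette is not given in its labels. The sorted and unsorted comparisons share libraries, so their counts are not independent of each other.

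Other chaperone and stress genes were taken from lists of known function. The small heat shock proteins Hsp26 and Hsp42, which hold unfolded proteins in aggregates, were both higher in LiCl than in either drug (12.4% of all genes against myriocin and 10.5% against fenpropimorph) and lower in NaCl than in LiCl (18.4% of all genes). The comparisons with LiCl in these lists share the LiCl libraries, so opposite signs in LiCl over a drug and in NaCl or high glucose over LiCl are in part given by construction. The median of the pair was 4.46 and 4.71 in LiCl over myriocin, against -0.02 and 0.04 over all genes. *HSP26* was higher in LiCl than in fenpropimorph by 5.53 and 5.16 and *HSP42* by 1.39 and 2.34, and in NaCl over LiCl *HSP26* stood at -10.43 and -9.50 and *HSP42* at -7.50 and -7.68. Of 12 Hsp90 co-chaperone genes, 3 were higher (12.4% of all genes) and 2 lower (11.9%) in LiCl than in myriocin, and 2 of 12 is near the share of all genes. The peptidyl-prolyl isomerase gene *CPR6* led them at 2.12 and 2.20. Among 4 nucleotide exchange factors of Hsp70, 1 was higher in LiCl than in myriocin (12.4% of all genes), *SSE2* by 1.78 and 2.68. Another, *SNL1*, was lower (11.9% of all genes), and the median of the 4 was -0.58 and -0.39. The 4 ribosome-associated chaperone genes (*SSB1*, *SSB2*, *ZUO1* and *SSZ1*), whose products fold nascent chains, stood on the other side. All 4 were lower in LiCl than in myriocin (11.9% of all genes) and fenpropimorph (10.1%), and all 4 were higher in NaCl (16%) and in high glucose (12.4%) than in LiCl. Their median was -2.32 and -3.06 in LiCl over myriocin, and *ZUO1* stood at -2.64 and -2.94.

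The CCT chaperonin, a ring that folds actin and tubulin, had 6 of 8 subunit genes lower in LiCl than in myriocin (11.9% of all genes), none lower than in fenpropimorph (10.1%), and 7 of 8 higher in NaCl than in LiCl (16%). Of 8 Msn2 and Msn4 target genes, 5 were higher in LiCl than in each drug (12.4% of all genes against myriocin and 10.5% against fenpropimorph), all 8 were lower in NaCl than in LiCl (18.4%), and 7 were lower in high glucose than in LiCl (15%). Their median was 4.67 and 4.62 in LiCl over myriocin, and that of the CCT genes -1.05 and -1.30. In the sorted cells relative to the culture labelled intron deletion, several of the lists were led by genes other than those that led in LiCl over the drugs. *FES1*, an Hsp70 nucleotide exchange factor gene, was higher in Rps22B-high cells by 4.65 and 4.43, and the J-domain gene *APJ1* by 3.73 and 3.39. *CUR1*, a sorting factor gene related to *BTN2*, was higher by 2.88 and 2.88. *KAR2*, the Hsp70 gene of the endoplasmic reticulum, was higher by 2.41 and 2.15. In their lists, in order, 2 of 4, 1 of 9, 3 of 6 and 1 of 8 genes were higher (9.12% of all genes). In the same order 0, 1, 1 and 0 genes were lower (9.92%). The list medians were 0.74 and 0.58, -0.19 and -0.25, 1.33 and 1.02, and 0.25 and 0.14. The catalase gene *CTT1* was lower at -3.37 and -3.72, and 3 of 8 Msn2 and Msn4 targets were lower and 0 higher. The small heat shock protein gene *HSP26* was lower at -2.08 and -2.52, while *HSP42* of the same pair was higher by 2.57 and 1.98. *HSF1* itself differed by 0.09 and -0.12 there, and by -0.09 and -0.03 between Rps22B-high and Rps22B-low cells.

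**Figure D5:**
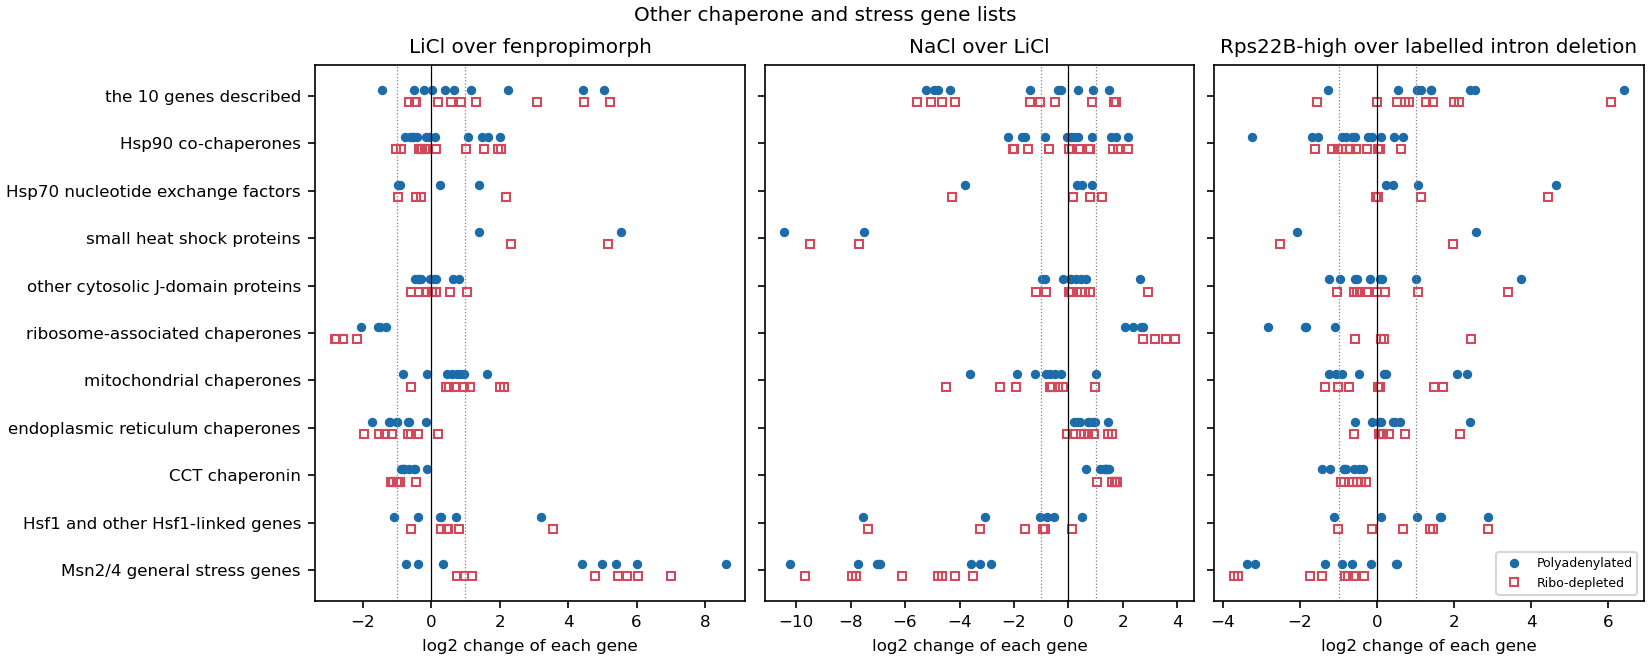
The log2 difference of each gene (points) of the 10 genes described and of 10 lists in 3 comparisons, filled circles for polyadenylated and open squares for ribo-depleted RNA, with dotted lines at 2-fold. In LiCl over fenpropimorph both small heat shock protein genes and 5 of 8 Msn2/4 genes lay past 2-fold on the right and the 4 ribosome-associated genes on the left, and NaCl over LiCl, which uses the same LiCl libraries as its denominator, is plotted beside it.

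Over the 16 libraries, after log2 CPM was centred within each library type, pairs of the 10 genes had Pearson r between -0.43 (*SSA3* and *YDJ1*) and 0.98 (*SIS1* and *BTN2*). *SSA4* and *HSP82* had r = 0.96 and *SSA2* and *HSC82* r = 0.92. The libraries of a sample share RNA and all share a strain or treatment with others, so these values describe the libraries only. Among 6422 genes, from which the 10 were then left out, the closest to the mean of the 10 was YPL229W (r = 0.979). Next came the mitochondrial splicing factor gene *CBP2* (0.979), the mitochondrial J-domain protein gene *MDJ1* (0.978), *HEH2* of the inner nuclear membrane (0.973) and *MHP1* (0.963). Those closest to *SSA4* were *GAL7* of galactose metabolism (0.987), *CBP2* (0.973) and YPR064W (0.972), and those closest to *HSP82* were the cytochrome c oxidase subunit gene *COX5B* (0.971), *SSE2* (0.967) and the polyubiquitin gene *UBI4* (0.959).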

How the data were processed

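RNA of 8 samples was sequenced as polyadenylated and ribo-depleted libraries (stranded kit, paired 100-bp reads). The authors trimmed reads with cutadapt, aligned them to R64 (HISAT2 in the processing notes, TopHat or HISAT2 in the methods) and deposited raw read counts from featureCounts for 6697 CDS, CDS introns and 5′ UTR introns. Feature coordinates and lengths, another kind of value, are deposited with them. Total CDS counts were 29557254 to 50337762 (polyadenylated) and 36377857 to 53234402 (ribo-depleted), so that counting error is small for all 10 genes. Symbols were matched for 6014 CDS.

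Counts were scaled to CPM with edgeR TMM factors within each library type (factors 0.798 to 1.29). Genes with a mean of at least 10 reads were kept, 6640 and 6616, with 6602 in both. Differences are log2 ratios with a pseudocount of 0.5 and 95% counting intervals. With 1 library per group no model was fitted. A gene was called when it differed at least 2-fold in the same direction in both types. Groups follow the labels. The 10 genes, the lists and the comparisons were chosen with earlier results of these data known. Named genes were all 10, the highest and lowest gene of each list in each comparison, the 5 genes closest to the mean of the 10 and the 3 closest to *SSA4* and to *HSP82*. Further values of genes so named were added after values were seen.

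Alternatives were DESeq2 size factors, total CDS count, TMM without ribosomal protein genes, a pseudocount of 1, no filter, a 1.5-fold limit, each library type alone, and near-identical pairs summed. The log2 ratios and intervals were tested on simulated counts that held counting error alone. That test checks neither the scaling nor the spread between cultures. DESeq2 1.42.0 (for its size factors) and edgeR 4.0.16 ran in R 4.3.3, with Python 3.11.15, numpy 2.4.6, pandas 2.3.3, Biopython 1.88 and matplotlib 3.10.9 for the rest.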

Additional observations from a re-analysis of the deposited data

Results flagged for a closer look

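*HSP104* in high glucose over myriocin differed by more than 2-fold in opposite directions in libraries of the same RNA, -2.14 on the log2 scale in polyadenylated and 1.34 in ribo-depleted RNA. This was the only one of the 10 genes and 16 comparisons to do so, and the difference between the library types was not tested.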

How the results depend on the processing

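Under DESeq2 size factors, total CDS counts, TMM without ribosomal protein genes, a pseudocount of 1 and summed paralogue pairs, the number of the 10 genes at least 2-fold different in both library types stayed within 1.5 times the reported count in each of the 6 main comparisons. With a 1.5-fold limit the count was 5 in place of 3 for LiCl over fenpropimorph, 6 in place of 3 for high glucose over LiCl and 5 in place of 3 for the library labelled intron deletion over WT. With polyadenylated libraries alone these counts were 5, 8 and 5. With ribo-depleted libraries alone the count was 8 in place of 5 for NaCl over LiCl and 5 in place of 3 for high glucose over LiCl. Requiring both library types removes genes by construction. Rps22B-high over Rps22B-low gave 0 genes under each of these settings. On total CDS counts, 4 genes were higher and none lower in LiCl over myriocin, since *HSP104* was gained and *YDJ1* lost. In the other comparisons, *YDJ1* in NaCl over fenpropimorph and *SSA3* in Rps22B-low cells over the library labelled intron deletion were lost on total CDS counts, and *HSP82* in high glucose over fenpropimorph was lost with DESeq2 size factors. On total CDS counts 9 genes were higher in each sorted population over WT cells in LiCl, in place of 7 (Rps22B-high) and 6 (Rps22B-low). Over the library labelled intron deletion these counts were 7 in place of 5 and 5 in place of 4. *HSC82* in high glucose over each drug and *SSA4* in NaCl over fenpropimorph were gained as well. With DESeq2 size factors *HSP82* in NaCl over myriocin was gained, and without ribosomal protein genes *HSC82* in high glucose over fenpropimorph. Over the 16 comparisons, total CDS counts put the median of all genes at -0.43 to 0.37 (polyadenylated) and -0.32 to 0.58 (ribo-depleted). Total CDS counts changed the sign of 17 of 320 differences of the 10 genes, the largest of them 0.34. DESeq2 size factors moved them by at most 0.10 and a pseudocount of 1 by at most 0.0042, and no called value reversed. Without the filter, 1 of 32 shares of all genes changed more than 1.5-fold or from 0, and no share shifted by more than 0.314 percentage points.

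Each sample had 1 library per type, and the spread between cultures is unknown. No paired analysis was possible because no group has a replicate. Counting error was small, with at least 163 reads for each of the 10 genes in each library.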
